A study of Mus musculus with 6 samples.

Results

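The liver genes described here encode the enzymes that make bile acids from cholesterol and join them to amino acids. They were chosen by symbol from the deposited gene count table, which holds 16603 genes, and all 10 listed symbols (Cyp7a1, Cyp8b1, Cyp27a1, Cyp7b1, Cyp2c70, Hsd3b7, Akr1d1, Acox2, Baat and Slc27a5) were found. The table comes from bulk RNA-seq of mouse liver, with 3 libraries labelled Mdr2 knockout and 3 labelled WT. Mdr2 (gene Abcb4) is the canalicular transporter that puts phosphatidylcholine into bile, and mice lacking it develop injury around the bile ducts. The labels give tissue and genotype only. Allele, strain, age and sex are not stated, nor is it stated that replicates were different animals, so p-values here measure sample-to-sample spread that could be technical.

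Bile acids are made in hepatocytes along a pair of routes. In the classic route the microsomal hydroxylase CYP7A1 takes the first and rate-limiting step. In the alternative route the mitochondrial enzyme CYP27A1 oxidises the cholesterol side chain and CYP7B1 then hydroxylates the ring. Further enzymes modify the ring, shorten the side chain in peroxisomes and couple the product to taurine or glycine. Bile acids returning to the liver act through the nuclear receptor FXR (gene Nr1h4), and through the intestinal hormone FGF15 and its receptor complex FGFR4 and beta-Klotho (gene Klb), to restrain Cyp7a1.

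The 6 libraries held 17100393 to 18124467 counts. The columns of the table are named by letters, with M read as Mdr2 knockout and N as WT by elimination, and each direction rests on that reading. The targeted gene goes against the label: Abcb4 stood at 500, 513 and 434 CPM (counts relative to library size after TMM scaling) in labelled Mdr2-knockout replicates 1, 2 and 3, and at 330, 369 and 273 CPM in labelled WT replicates 1, 2 and 3 (log2 fold change 0.57, edgeR adjusted p = 0.00389). A count over the whole gene cannot check the genotype, since the deleted stretch is not named. Groups are therefore named by their labels. Hepatocyte markers, the check on the labelled tissue, were abundant in all libraries, with Alb at 48640 to 50340 CPM in the labelled Mdr2-knockout and 81230 to 89910 CPM in the labelled WT libraries.

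Of the 10 genes, 5 fell and 0 rose in the labelled Mdr2-knockout libraries by edgeR's quasi-likelihood test at an adjusted p under 0.05: Cyp7b1, Slc27a5, Cyp27a1, Hsd3b7 and Akr1d1. Over all 12612 tested genes, 16.3% fell and 20.9% rose, together 37.1%. The median log2 fold change was -0.36 over the 10 genes and 0.01 over all tested genes. At an unadjusted p under 0.05, 1 of the 10 was higher and 6 were lower, as were 25.7% and 21.6% of all tested genes. DESeq2 called 1 higher, Cyp7a1, and 5 lower, where it called 16.7% of 14698 genes higher and 13.4% lower, together 30%. The calls of limma-voom numbered 0 higher and 5 lower, where it called 20.7% of all tested genes higher and 16.4% lower. The same 5 genes fell with RLE scaling (17.3% of all tested genes fell and 20.4% rose, together 37.7%) and with upper-quartile scaling (11.4% fell and 23.3% rose, together 34.7%). Without any test, 1 of the 10 genes had CPM that were higher and 6 that were lower with no overlap between groups, against 27.6% and 23.7% of all tested genes, together 51.3%.

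These directions are relative to the TMM reference, which centres the fold changes of most genes near 0. Across all tested genes, scaling by total counts put the median at 0.30, and scaling by a list of hepatocyte markers put it at 0.43. With total counts 3 of the 10 genes fell (Cyp7b1, Slc27a5 and Cyp27a1) and 1 rose (Cyp7a1), where 2.62% of all tested genes fell and 47.1% rose, together 49.7%. Relative to hepatocyte markers 2 fell (Cyp7b1 and Slc27a5) and 3 rose (Cyp7a1, Cyp8b1 and Acox2), where 1.38% of all tested genes fell and 65.7% rose, together 67.1%. In bulk liver, fewer hepatocytes and less RNA per hepatocyte cannot be told apart.

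Markers of several cell types moved with these results. Of 23 tested hepatocyte markers 16 fell and 0 rose (median log2 fold change -0.47), and their summed level was 110500 to 116400 CPM in the labelled Mdr2-knockout and 162500 to 172300 CPM in the labelled WT libraries. Alb was a large part of that sum. Alb, Ttr, Hpd, Apoa2, Apoa1 and Rbp4 had the smallest p among them. Hpx (0.24), Cps1 (0.05) and Ass1 (0.06) had positive log2 fold changes and did not pass. With total counts 8 hepatocyte markers fell and 2 rose, Cps1 and Ass1 (edgeR adjusted p = 0.00654 and 0.00692). Under that scaling 2.62% of all tested genes fell and 47.1% rose. All 12 cholangiocyte markers rose (median log2 fold change 3.46), with sums of 400.1 to 439 CPM in the labelled Mdr2-knockout and 62.7 to 83.1 CPM in the labelled WT libraries. Of these, Epcam, Krt19, Bicc1, Cldn4, Ehf and Cftr had the smallest p, and Cftr was at or under 1 count in each labelled WT library. Macrophage markers rose for 7 of 10, with sums of 559 to 638 CPM in the labelled Mdr2-knockout and 252 to 449.7 CPM in the labelled WT libraries, led by Gpnmb, Ccr2, Itgam, Trem2, Lyz2 and Cd68. Stellate cell markers rose for 6 of 9 (532 to 647 CPM in the labelled Mdr2-knockout and 233 to 356 CPM in the labelled WT libraries), namely Lum, Pdgfrb, Col1a1, Col3a1, Dcn and Des. Endothelial markers rose for 3 of 8 (Cd34, Vwf and Stab2) and fell for 3 (Oit3, Kdr and Clec4g), with overlapping sums. For all these counts, edgeR called 16.3% of all tested genes lower and 20.9% higher. With total counts 4 endothelial markers rose and 1 fell. With hepatocyte-list scaling 4 endothelial markers rose and 0 fell, and 4 hepatocyte markers fell and 2 rose. In that scaling 1.38% of all tested genes fell and 65.7% rose. The part of these cell types in the enzyme results was not tested.

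**Figure D1:**
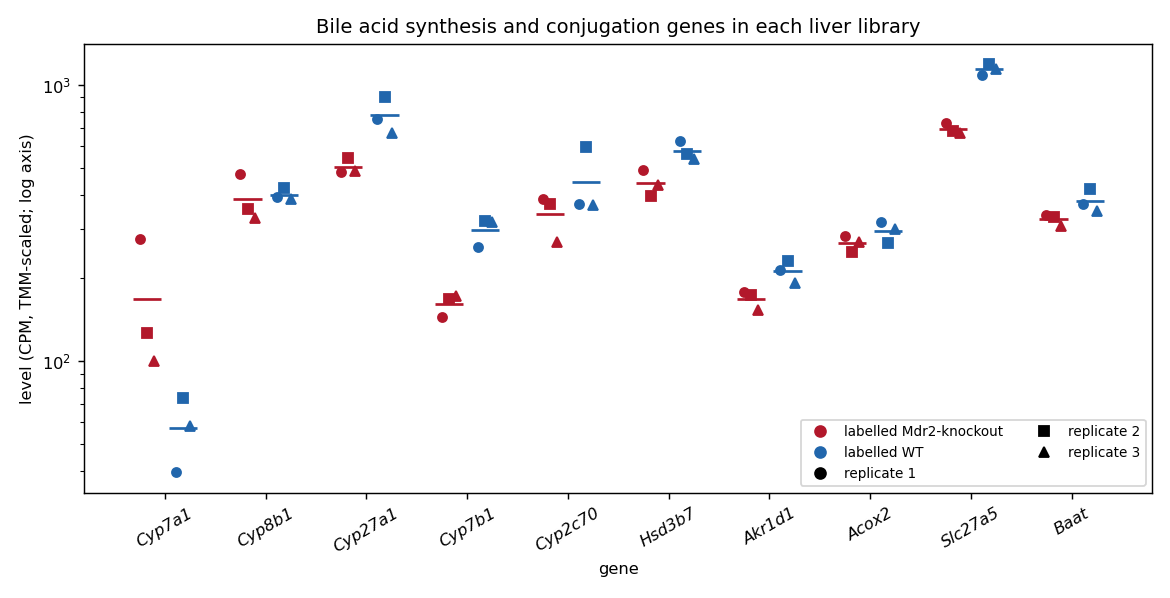
Level of each of the 10 genes in each library (CPM scaled by TMM factors, log axis), with red for libraries labelled Mdr2-knockout and blue for those labelled WT; marker shapes are replicates 1 to 3 and horizontal lines are group means (n = 3 each). Cyp7a1 is the only one of the 10 genes with every red point above every blue point, and for 6 of them every red point lies below every blue point.

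**Figure D2:**
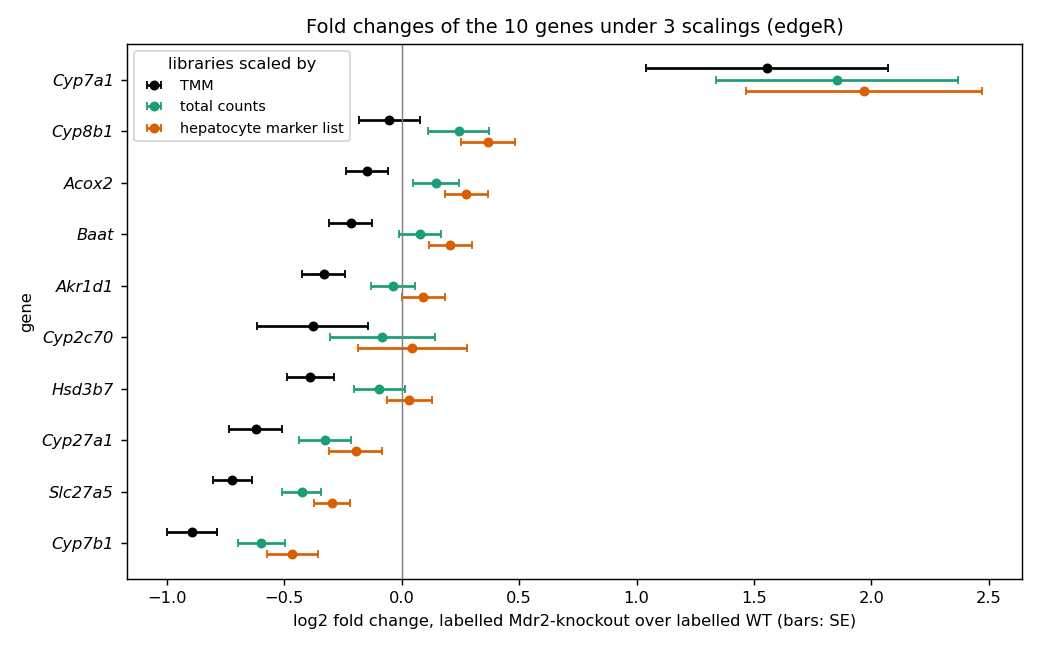
Log2 fold change of each of the 10 genes, labelled Mdr2-knockout over labelled WT, with libraries scaled by TMM factors, total counts or the hepatocyte marker list; bars are SE from edgeR (n = 3 each). Cyp7a1 lies right of 0 and Cyp7b1, Slc27a5 and Cyp27a1 lie left of 0 under all 3 scalings, while Cyp8b1, Acox2 and Baat change sign with total counts and hepatocyte markers, and Akr1d1, Cyp2c70 and Hsd3b7 with hepatocyte markers.

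Cyp7a1, the rate-limiting enzyme of the classic route, had the largest fold change of the 10 genes and the largest spread. It lies on chromosome 4 from 6265612 to 6275633 (GRCm38, minus strand). It received 5566, 2505 and 1924 counts in labelled Mdr2-knockout replicates 1, 2 and 3, against 621, 1152 and 919 in labelled WT replicates 1, 2 and 3. Scaled, these were 276, 126 and 99.98 CPM in the labelled Mdr2-knockout libraries, against 39.5, 73.6 and 57.99 CPM in the labelled WT libraries. The groups did not overlap, and labelled Mdr2-knockout replicate 1 stood well above the other two of its group. Non-overlapping, higher levels were found for 27.6% of all tested genes. The coefficient of variation was 56.8% in the labelled Mdr2-knockout and 29.9% in the labelled WT libraries, against no more than 20.1% and 29.4% for the 9 other genes.

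The log2 fold change of Cyp7a1 was 1.55 (SE 0.52), a 2.94-fold difference that did not pass (edgeR unadjusted p = 0.0354, adjusted p = 0.0809). The same comparison passed with DESeq2 (adjusted p = 0.0177), with total-count scaling (edgeR adjusted p = 0.042), with hepatocyte-list scaling (edgeR adjusted p = 0.0248) and with limma on the deposited FPKM (adjusted p = 0.021). Without labelled Mdr2-knockout replicate 1 the log2 fold change was 0.99 (edgeR adjusted p = 0.0728). Leaving out each library in turn gave positive values from 0.99 to 1.82, with edgeR adjusted p from 0.0728 to 0.194.

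The genes whose centred log2 CPM lay closest to those of Cyp7a1 over the 6 libraries, among 4145 well-expressed genes, were Msmo1, Micu2, Ablim1, Sparc and Kifc3, by root mean square difference. The differences were 0.44 for Msmo1, which encodes a cholesterol synthesis enzyme, and 0.45 to 0.48 for the other four. Msmo1 was at 70.4, 46.7 and 39.5 CPM in labelled Mdr2-knockout replicates 1, 2 and 3, and at 24.7, 23.9 and 31.6 CPM in labelled WT replicates 1, 2 and 3. Labelled Mdr2-knockout replicate 1 was the highest library for Cyp7a1 and Msmo1, and also for Micu2, Sparc and Kifc3, but not for Ablim1. Its lead was slight for Micu2 (60.7 against 60.3 CPM in labelled Mdr2-knockout replicate 2) and Sparc (88.9 against 86.0 CPM in labelled Mdr2-knockout replicate 3). For Cyp7a1 these libraries were far apart. These genes were picked for closeness to Cyp7a1 over the same 6 libraries. A shared highest library therefore follows in part from that choice, and shared regulation was not tested.

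Cyp8b1, the sterol hydroxylase that sets how much cholic acid is made, lies on chromosome 9 from 121914356 to 121916305 (minus strand). It was at 474, 356 and 328 CPM in labelled Mdr2-knockout replicates 1, 2 and 3, against 393, 422 and 386 CPM in labelled WT replicates 1, 2 and 3. The groups overlapped, with the highest value and the lowest pair of values all in the labelled Mdr2-knockout group. Its log2 fold change of -0.05 (SE 0.13) did not pass (edgeR adjusted p = 0.779). The sign turned with total counts (0.24, edgeR adjusted p = 0.144) and relative to hepatocyte markers (0.37), where it passed (edgeR adjusted p = 0.0161).

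Both genes that act on the alternative route fell. Cyp27a1, which oxidises the side chain of cholesterol and of classic-route intermediates, lies on chromosome 1 from 74713574 to 74737892 (plus strand). It was at 482, 545 and 486 CPM in labelled Mdr2-knockout replicates 1, 2 and 3, against 755, 903 and 671 CPM in labelled WT replicates 1, 2 and 3. Every labelled Mdr2-knockout library lay below every labelled WT library (log2 fold change -0.62, SE 0.11, edgeR adjusted p = 0.00216). The fall passed with total counts (-0.33, edgeR adjusted p = 0.0295) and not relative to hepatocyte markers (-0.20, edgeR adjusted p = 0.146).

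Cyp7b1, the oxysterol hydroxylase of the alternative route, lies on chromosome 3 from 18071950 to 18243338 (minus strand) and had the most negative fold change of the 10 genes. It was at 144, 167 and 171 CPM in labelled Mdr2-knockout replicates 1, 2 and 3, against 258, 321 and 318 CPM in labelled WT replicates 1, 2 and 3. The groups were well apart (log2 fold change -0.89, SE 0.11, edgeR adjusted p = 0.000185). It also fell with total counts (-0.60) and relative to hepatocyte markers (-0.47, edgeR adjusted p = 0.0033). Hepatic Cyp7b1 is known to be higher in male than in female mice. The Y-linked genes Ddx3y, Kdm5d, Uty and Eif2s3y were present in all 6 libraries, with a summed level of 154 to 171 CPM in the labelled Mdr2-knockout and 137 to 150 CPM in the labelled WT libraries, and of these 4 Eif2s3y rose (edgeR adjusted p = 0.0118).

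Cyp2c70, the rodent enzyme that makes muricholic acids, lies on chromosome 19 from 40153353 to 40187333 (minus strand) in the Cyp2c cluster, so reads of its paralogs could be miscounted. It was at 385, 370 and 269 CPM in labelled Mdr2-knockout replicates 1, 2 and 3, against 370, 594 and 367 CPM in labelled WT replicates 1, 2 and 3. The groups overlapped, and labelled WT replicate 2 stood alone above the rest (log2 fold change -0.38, SE 0.24, edgeR adjusted p = 0.259). Without that library the value was -0.12 (edgeR adjusted p = 0.587). Its fold change was -0.08 with total counts and turned to 0.05 relative to hepatocyte markers.

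The ring-modifying enzymes that act after the hydroxylases fell under TMM, RLE and upper-quartile scaling, and neither passed with total counts or relative to hepatocyte markers. Hsd3b7, which oxidises and isomerises the sterol ring, lies on chromosome 7 from 127800604 to 127803802 (plus strand). It was at 491, 395 and 434 CPM in labelled Mdr2-knockout replicates 1, 2 and 3, against 629, 561 and 538 CPM in labelled WT replicates 1, 2 and 3. The groups did not overlap (log2 fold change -0.39, SE 0.10, edgeR adjusted p = 0.0135). Without labelled Mdr2-knockout replicate 2 the call was lost (edgeR adjusted p = 0.0517). With total counts it was at -0.10 (edgeR adjusted p = 0.481), and relative to hepatocyte markers it turned to 0.03. Exons of Hsd3b7 share 1717 bases with the predicted gene Gm49388 and 1729 bases with 9430064I24Rik on the other strand, neither of which has a row in the count table, so its value is uncertain.

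Akr1d1, the reductase that bends the steroid ring, lies on chromosome 6 from 37530173 to 37568815 (plus strand). It was at 177, 174 and 153 CPM in labelled Mdr2-knockout replicates 1, 2 and 3, against 214, 229 and 191 CPM in labelled WT replicates 1, 2 and 3. All labelled Mdr2-knockout values lay below all labelled WT values (log2 fold change -0.33, SE 0.09, edgeR adjusted p = 0.0174). The call was lost without labelled Mdr2-knockout replicate 3 or labelled WT replicate 2 (edgeR adjusted p = 0.0614 and 0.0731), and with total counts (-0.04, edgeR adjusted p = 0.753). Relative to hepatocyte markers its sign turned (0.09).

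The stretches before the transcription starts of 3 of these genes are shown as examples with and without a motif of HNF4, a nuclear receptor family of hepatocytes. RefSeq windows (GRCm38.p6) matched 6 of the 10 genes, with 7 starts, and were not found for Cyp7a1, Cyp7b1, Baat and Slc27a5. Each sequence is the 250 bases before the start, 5′ to 3′ on the gene's strand. Capitals mark CAAAGTCCA, a form of the HNF4 motif, searched on both strands and chosen, like the other forms, with the gene values known.
Cyp8b1, chr9:121916306-121916555, minus strand: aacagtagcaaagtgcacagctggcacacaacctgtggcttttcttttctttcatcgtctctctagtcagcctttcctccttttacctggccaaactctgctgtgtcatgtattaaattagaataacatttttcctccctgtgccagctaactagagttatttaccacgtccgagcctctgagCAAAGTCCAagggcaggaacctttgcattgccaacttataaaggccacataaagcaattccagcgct
Cyp2c70, chr19:40187287-40187536, minus strand: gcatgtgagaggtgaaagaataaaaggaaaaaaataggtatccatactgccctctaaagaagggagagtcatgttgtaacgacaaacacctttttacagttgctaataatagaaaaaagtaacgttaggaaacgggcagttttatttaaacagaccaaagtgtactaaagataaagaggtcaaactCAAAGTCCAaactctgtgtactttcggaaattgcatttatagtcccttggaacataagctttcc
Cyp27a1, chr1:74713285-74713534, plus strand: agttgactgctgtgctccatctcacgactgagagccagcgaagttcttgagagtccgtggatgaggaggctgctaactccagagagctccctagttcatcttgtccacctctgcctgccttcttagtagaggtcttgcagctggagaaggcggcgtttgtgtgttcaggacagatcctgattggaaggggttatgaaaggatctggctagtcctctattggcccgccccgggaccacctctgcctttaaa

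The motif stood 67 to 59 bases before the start of Cyp8b1 and 64 to 56 bases before that of Cyp2c70, on the gene's own strand in both. It was in 0.384% of all 32851 windows, and in 2 of the 7 windows of these enzymes. The form CAAAGGTCA (0.426% of all windows) and the LRH-1 forms CAAGGTCA (1.33%) and CAAGGCCA (1.99%) were in 0 of the 7. None of the 4 forms holds another of them within it. The windows of Cyp27a1, Hsd3b7, Akr1d1 and Acox2 did not hold it. A match is a string of letters and no measured binding site.

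Of the peroxisomal and conjugating enzymes Slc27a5 fell, and Baat and Acox2 did not pass. Slc27a5, the bile acyl-CoA ligase that activates bile acids for conjugation, lies on chromosome 7 from 12988346 to 12998192 (minus strand). It was at 726, 678 and 667 CPM in labelled Mdr2-knockout replicates 1, 2 and 3, against 1084, 1186 and 1143 CPM in labelled WT replicates 1, 2 and 3. Its coefficient of variation, 4.49% in both groups, was the lowest of the 10 genes (log2 fold change -0.72, SE 0.08, edgeR adjusted p = 0.000147). It also fell with total counts (-0.43) and relative to hepatocyte markers (-0.30, edgeR adjusted p = 0.0066).

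Baat, which transfers the activated bile acid to taurine or glycine, lies on chromosome 4 from 49489422 to 49506557 (minus strand). It was at 338, 334 and 309 CPM in labelled Mdr2-knockout replicates 1, 2 and 3, against 371, 420 and 349 CPM in labelled WT replicates 1, 2 and 3. The groups did not overlap, yet the difference did not pass (log2 fold change -0.22, SE 0.09, edgeR adjusted p = 0.083). It passed without labelled WT replicate 3 (edgeR adjusted p = 0.0392). The sign turned with total counts (0.08) and relative to hepatocyte markers (0.21).

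Acox2, the peroxisomal oxidase that begins side-chain shortening, lies on chromosome 14 from 8225511 to 8259353 (minus strand). It was at 283, 249 and 270.0 CPM in labelled Mdr2-knockout replicates 1, 2 and 3, against 319, 268 and 301 CPM in labelled WT replicates 1, 2 and 3. The groups overlapped (log2 fold change -0.15, SE 0.09, edgeR adjusted p = 0.225). Its sign turned with total counts (0.15) and relative to hepatocyte markers (0.28), where it passed (edgeR adjusted p = 0.0191).

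Ratios between genes within a library do not depend on the scaling between libraries, and 4 were compared. Per length, the FPKM of Cyp8b1 was 3.67, 6.03 and 7.03 times that of Cyp7a1 in labelled Mdr2-knockout replicates 1, 2 and 3, against 21.3, 12.3 and 14.3 times in labelled WT replicates 1, 2 and 3. The groups did not overlap, and the ratio was 2.88-fold lower in the labelled Mdr2-knockout libraries. The ratio of Cyp7b1 to Cyp7a1 was 0.928, 2.35 and 3.04 in the labelled Mdr2-knockout libraries, against 11.6, 7.75 and 9.72 in the labelled WT libraries, 5.08-fold lower. Cyp7b1 to Cyp27a1 overlapped, at 0.305 to 0.359 in the labelled Mdr2-knockout and 0.348 to 0.482 in the labelled WT libraries (exact permutation p = 0.2). Baat to Slc27a5 stood at 0.554 to 0.588 in the labelled Mdr2-knockout and 0.365 to 0.423 in the labelled WT libraries, 1.42-fold higher with no overlap. Each of the 3 ratios whose groups did not overlap had a two-sided exact permutation p of 0.1, the smallest that 3 against 3 allows, and 0.133 after Benjamini-Hochberg adjustment over the 4 ratios.

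**Figure D3:**
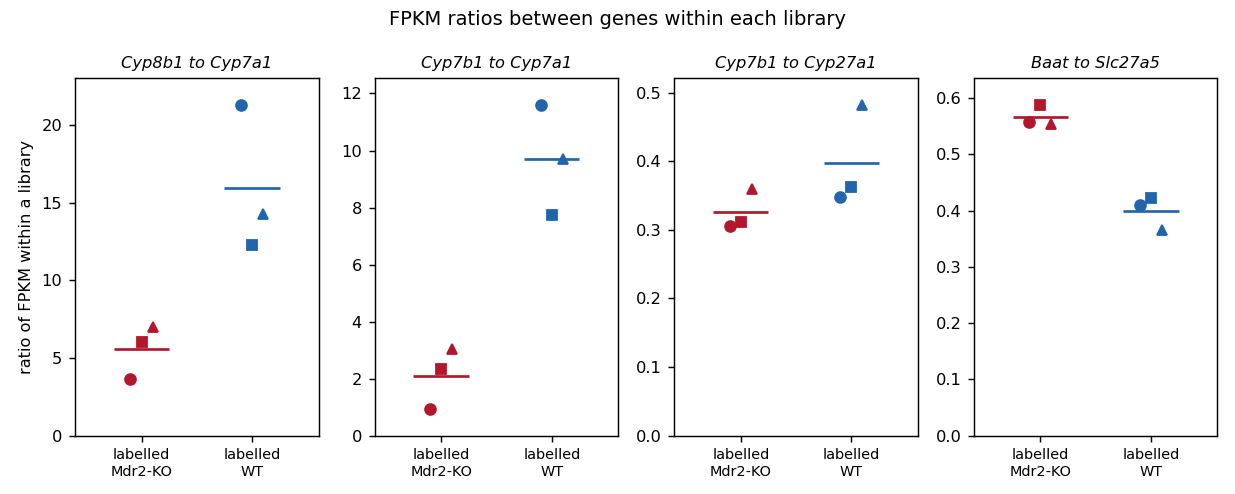
Ratios of FPKM between pairs of the 10 genes within each library, labelled Mdr2-knockout (red) left of labelled WT (blue); marker shapes (circle, square, triangle) are replicates 1, 2 and 3 and lines are group means. The groups separate for Cyp8b1 to Cyp7a1 (3.67 to 7.03 in labelled Mdr2-knockout and 12.3 to 21.3 in labelled WT libraries), Cyp7b1 to Cyp7a1 and Baat to Slc27a5, and overlap for Cyp7b1 to Cyp27a1.

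Compared per length, Cyp7a1 ranked 9 of 10 in the labelled Mdr2-knockout and 10 of 10 in the labelled WT libraries. Slc27a5 had the highest FPKM, at 328 ± 16.1 in the labelled Mdr2-knockout and 441 ± 12.3 in the labelled WT libraries (SD, n = 3 each), apart from the next gene in both. In the labelled Mdr2-knockout libraries Hsd3b7, Cyp27a1, Cyp2c70, Cyp8b1 and Baat followed, at means of 237 to 186 FPKM, and each neighbouring pair overlapped. Then came Acox2, Cyp7b1, Cyp7a1 (44.5 ± 25.5 FPKM) and Akr1d1 (28.2 ± 2.22 FPKM). Cyp7a1 overlapped its neighbours on both sides. In the labelled WT libraries Cyp27a1, Hsd3b7 and Cyp2c70 overlapped one another at means of 292 to 234 FPKM, and Cyp8b1 and Baat overlapped below them. Cyp7b1, Acox2, Akr1d1 (28.98 ± 2.54 FPKM) and Cyp7a1 (12.3 ± 3.49 FPKM) followed without overlap, so that Cyp7a1 was the lowest of the 10 in each labelled WT library. On the FPKM scale, which follows total counts, Cyp7a1 was the only one of the 10 with non-overlapping, higher values, where 55.4% of all tested genes had them. Cyp27a1, Cyp7b1 and Slc27a5 had non-overlapping, lower values, where 4.35% of all tested genes did.

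Other enzymes of bile acid synthesis were read from a list of 10, of which 9 were tested: 4 fell, 0 rose and 5 did not pass, with a median log2 fold change of -0.30. At an unadjusted p under 0.05, 0 were higher and 5 lower, and DESeq2, which fitted all 10, called 0 higher and 5 lower. Among all tested genes edgeR called 16.3% lower and 20.9% higher, and 21.6% and 25.7% at that unadjusted p. DESeq2 called 13.4% of its genes lower and 16.7% higher. Slc27a2, a very-long-chain acyl-CoA synthetase that also activates bile acid precursors, was at 879 ± 61.8 CPM in the labelled Mdr2-knockout and 1769 ± 180.0 CPM in the labelled WT libraries (SD, n = 3 each; log2 fold change -1.01, SE 0.10, edgeR adjusted p = 6.45e-05). Cyp46a1, the cholesterol hydroxylase known from brain, was low in liver, at 0.692 ± 0.156 CPM in the labelled Mdr2-knockout and 1.67 ± 0.247 CPM in the labelled WT libraries (log2 fold change -1.26, edgeR adjusted p = 0.0106). Both also fell with total counts and relative to hepatocyte markers. The peroxisomal racemase gene Amacr (-0.21, edgeR adjusted p = 0.0486) and the thioesterase gene Acot8 (-0.46, edgeR adjusted p = 0.0454) lay just inside the threshold. Without any 1 of labelled Mdr2-knockout replicates 1, 2 and 3 or labelled WT replicates 1 and 2 both calls were lost, at edgeR adjusted p of 0.0514 to 0.143 for Amacr and 0.058 to 0.144 for Acot8. Relative to hepatocyte markers Amacr (0.22, edgeR adjusted p = 0.0229) and Cyp2a12 (0.28, edgeR adjusted p = 0.024) rose, and 5 of the 9 tested enzymes had positive fold changes there.

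The remaining 5 tested enzymes did not pass. The oxysterol hydroxylase gene Cyp39a1 was at 17.7, 39.4 and 27.3 CPM in labelled Mdr2-knockout replicates 1, 2 and 3, against 44.2, 68.9 and 45.4 CPM in labelled WT replicates 1, 2 and 3 (log2 fold change -0.91, SE 0.36, edgeR adjusted p = 0.117). Its groups did not overlap, and it passed without labelled Mdr2-knockout replicate 2 (edgeR adjusted p = 0.0454). The peroxisomal genes Hsd17b4 (-0.30, edgeR adjusted p = 0.0723), Abcd3 (-0.19) and Scp2 (-0.14), and Cyp2a12 (-0.14), whose mouse enzyme re-hydroxylates secondary bile acids, had smaller fold changes. Hsd17b4 passed with DESeq2 (adjusted p = 0.0411), with no low-count filter (edgeR adjusted p = 0.0486), and without labelled Mdr2-knockout replicate 3 (edgeR adjusted p = 0.0306) or labelled WT replicate 3 (edgeR adjusted p = 0.0149). Ch25h, which makes an oxysterol in macrophages among other cells, was too low to be tested, with 22 counts over the labelled Mdr2-knockout and 5 over the labelled WT libraries.

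Among genes that regulate the pathway, 9 of the 14 tested fell, 0 rose and 5 did not pass, with a median log2 fold change of -0.41. At an unadjusted p under 0.05, 0 were higher and 10 lower, and DESeq2, which fitted 16, called 0 higher and 10 lower. The edgeR shares over all tested genes were 16.3% lower and 20.9% higher, and 21.6% and 25.7% at that unadjusted p. DESeq2 called 13.4% of its genes lower and 16.7% higher. With total counts, and also relative to hepatocyte markers, only Nr1i3 and Klb of the 14 still fell, and 8 of the 14 had positive fold changes relative to hepatocyte markers. Klb, the FGF15 co-receptor, was at 46.9, 32.8 and 47.4 CPM in labelled Mdr2-knockout replicates 1, 2 and 3, against 79.3, 91.8 and 71.6 CPM in labelled WT replicates 1, 2 and 3. The groups were far apart (log2 fold change -0.93, SE 0.16, edgeR adjusted p = 0.004). Its partner Fgfr4 also fell (-0.29, SE 0.08, edgeR adjusted p = 0.021), with the sign turned under total counts (0.0019) and hepatocyte-list scaling (0.13). Fgf15, the hormone made in the intestine, had 0 counts in every library, which allows up to 0.149 to 0.192 CPM in a library (3 counts, for counting error only).

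Hnf4a, which maintains hepatocyte gene expression, was at 723, 862 and 947 CPM in labelled Mdr2-knockout replicates 1, 2 and 3, against 1092, 1425 and 1325 CPM in labelled WT replicates 1, 2 and 3. It fell with no overlap (log2 fold change -0.60, SE 0.13, edgeR adjusted p = 0.00441), but did not pass with total counts (edgeR adjusted p = 0.0527). Nr5a2, the LRH-1 gene whose product activates Cyp7a1 and Cyp8b1, fell as well (-0.50, SE 0.08, edgeR adjusted p = 0.00147). The FXR gene Nr1h4 was at 131, 99.1 and 129 CPM in the labelled Mdr2-knockout libraries, against 165, 158 and 127 CPM in the labelled WT libraries, and overlapped (-0.32, edgeR adjusted p = 0.0836). It passed with DESeq2 (adjusted p = 0.045) and without labelled WT replicate 3 (edgeR adjusted p = 0.0173). Nr0b2, the SHP gene that FXR induces and that represses Cyp7a1, was at 31.0, 46.1 and 50.1 CPM in labelled Mdr2-knockout replicates 1, 2 and 3, against 74.0, 41.6 and 53.4 CPM in labelled WT replicates 1, 2 and 3. The groups overlapped (-0.41, SE 0.29, edgeR adjusted p = 0.32).

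The other nuclear receptor genes that fell were Nr1i3 (CAR; -1.34, edgeR adjusted p = 0.0196), Ppara (-0.78, edgeR adjusted p = 0.0264), Rxra (-0.41, edgeR adjusted p = 0.00627) and Nr1h3 (LXR alpha; -0.25, edgeR adjusted p = 0.0245). Mafg, a transcriptional repressor of bile acid synthesis genes, fell by 0.35 on the log2 scale (edgeR adjusted p = 0.00964). The calls of Nr1i3, Ppara, Nr1h3 and Fgfr4 were the least stable among these. The call of Nr1i3 was lost without labelled Mdr2-knockout replicate 1, 2 or 3 or labelled WT replicate 2 (edgeR adjusted p of 0.0566 to 0.0658). That of Ppara was lost without labelled Mdr2-knockout replicate 1 or labelled WT replicate 1 or 2 (0.0617 to 0.0848), and that of Fgfr4 without labelled Mdr2-knockout replicate 2 or labelled WT replicate 1 or 2 (0.0549 to 0.0723). Nr1h3 was lost without labelled Mdr2-knockout replicate 1 or 2 or labelled WT replicate 1 or 3 (0.0503 to 0.0826). Nr1i2 (-0.16), Prox1 (-0.15) and Foxa2 (-0.63, SE 0.54) did not pass. Too low to be tested were Vdr, with 13 counts over the labelled Mdr2-knockout and 1 over the labelled WT libraries, and the bile acid receptor gene Gpbar1, with 11 over the labelled Mdr2-knockout and 4 over the labelled WT libraries.

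**Figure D4:**
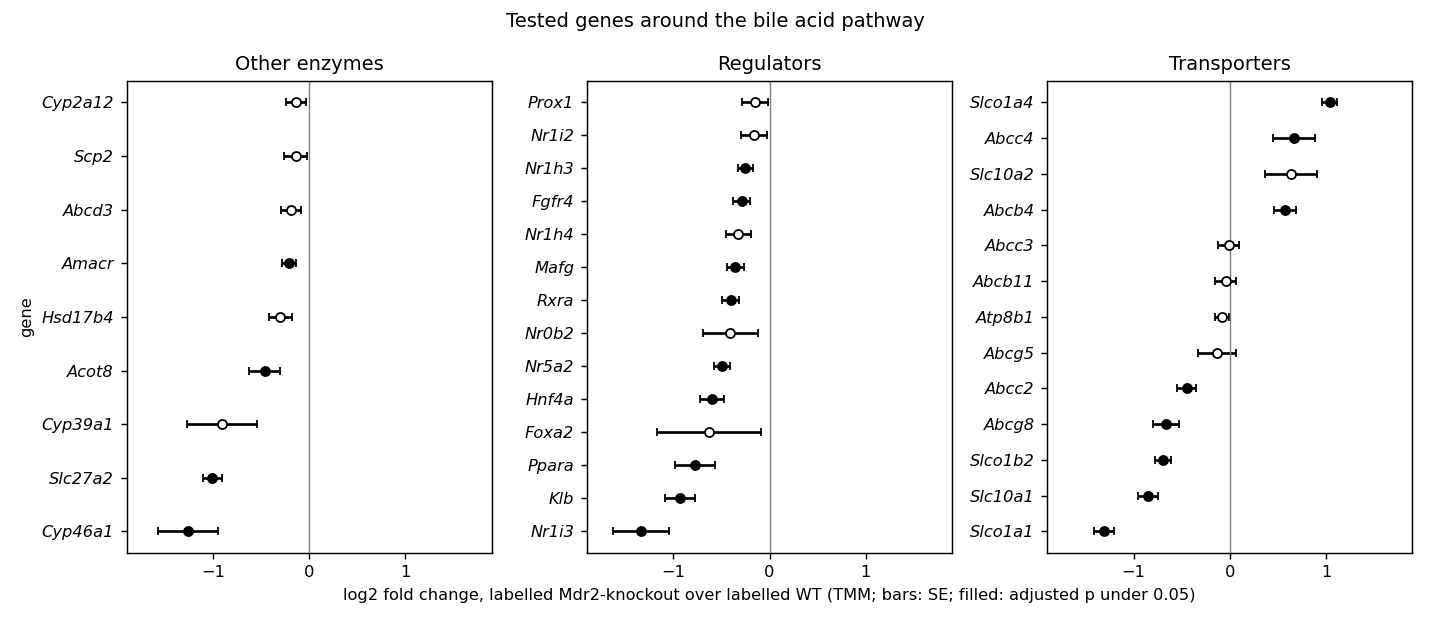
Log2 fold change, labelled Mdr2-knockout over labelled WT, of the tested genes in the lists of other enzymes, regulators and bile acid and bile lipid transporters (edgeR, TMM; bars are SE, n = 3 each; filled points passed at an adjusted p under 0.05). All tested enzymes and regulators lie left of 0 with TMM, though 5 enzymes and 8 regulators turn to the right relative to hepatocyte markers; the transporters lie on both sides.

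Of 13 tested transporters of bile acids and bile lipids, 5 fell, 3 rose and 5 did not pass. By comparison, 16.3% of all tested genes fell and 20.9% rose. The uptake carriers Slc10a1 (-0.85), Slco1a1 (-1.31) and Slco1b2 (-0.69), and the canalicular exporter Abcc2 (-0.45), fell, and Slco1a4 rose (1.04, edgeR adjusted p = 1.26e-05). Apart from Abcc2, these calls also held with total counts and relative to hepatocyte markers. Abcb11, the bile salt export pump, which was chosen after its values were seen, was at 759 ± 97.9 CPM in the labelled Mdr2-knockout and 781 ± 72.7 CPM in the labelled WT libraries (edgeR adjusted p = 0.791). Relative to hepatocyte markers Abcb11 turned to 0.38 (edgeR adjusted p = 0.0108). Abcc4, a basolateral exporter, was also called higher, and its call was lost with DESeq2 (adjusted p = 0.0652) and without any 1 of labelled Mdr2-knockout replicates 1, 2 and 3 or labelled WT replicates 1 and 2 (edgeR adjusted p of 0.0513 to 0.115). The remaining gene called higher was Abcb4, the gene named by the knockout label (0.57, edgeR adjusted p = 0.00389). Abcg8, a sterol exporter, was called lower (-0.66, edgeR adjusted p = 0.00669), but not relative to hepatocyte markers (-0.24, edgeR adjusted p = 0.139). Abcg5, of the same list, did not pass (-0.13, edgeR adjusted p = 0.634). Abcc4, Abcg5 and Abcg8 were also named after their values were seen.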

How the data were processed

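RNA from 3 liver samples labelled Mdr2 knockout and 3 labelled WT was sequenced. The authors deposited unnormalized, whole-number counts by gene symbol and, in a separate table, FPKM for the same libraries. Gene positions are from the GENCODE annotation of GRCm38, the build that mm10 denotes. The submitters' processing notes name build mm10 and the tools SAMtools, StringTie, Bowtie2, HTSeq, HISAT2, Trimmomatic, DESeq and Cufflinks, with no version or role. For annotation and strand setting the sources used here give nothing. The FPKM were proportional to counts over library totals, so they are no independent measurement.

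Counts were tested with edgeR 4.0.16 (R 4.3.3): filterByExpr (minimum count 10, minimum total 15), TMM factors, a robust quasi-likelihood fit with group as the only term, and Benjamini-Hochberg adjustment over all 12612 tested genes, with a threshold of 0.05. The pipeline was tested on simulated counts whose spread followed the trend over all genes. It recovered 57.6% of 1.5-fold, 93.8% of 2-fold and 100% of 4-fold changes, and 4.07% of its calls were false. Small differences can therefore be missed. Positive log2 fold changes mean higher in the libraries labelled Mdr2 knockout. SE came from the fold change and its F statistic. Ratios used exact permutation tests (scipy 1.17.1). Alternatives were RLE, upper-quartile, total-count and hepatocyte-list scaling, DESeq2 1.42.0, limma-voom (limma 3.58.1), other low-count filters, a replicate block, limma on log2(FPKM + 0.1), and leaving out each library. Genes outside the 10 were named by rule: every measured enzyme and regulator of the lists, the 6 of each other list with the smallest p, and the 5 nearest to Cyp7a1. Members and lists were chosen with earlier results of these data known. Library totals were 17100393 to 18124467 counts.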

Additional observations from a re-analysis of the deposited data

How the results depend on the processing

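With 3 libraries a group, single calls near the threshold depend on the scaling and on 1 library, and Cyp7a1, with 621 counts in its lowest library, has the widest spread of the 10 enzymes. Cyp7b1 and Slc27a5 fell under all 10 alternatives and without each library in turn. The call of Cyp27a1 was lost with hepatocyte-list scaling alone. Cyp7a1 passed at an adjusted p under 0.05 with total counts (log2 fold change 1.85), hepatocyte-list scaling (1.97), DESeq2 (1.53) and limma on FPKM (1.74). In the 6 other alternatives its fold change was positive and did not pass. Its leave-one-out values were 0.99 to 1.82.

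Signs reversed for Cyp8b1 with upper-quartile scaling (0.0059), total counts (0.24), hepatocyte-list scaling (0.37), limma on FPKM (0.22) and without labelled Mdr2-knockout replicate 3 (0.0498, with leave-one-out values from -0.2294). They reversed for Acox2 (0.15, 0.28 and 0.15) and Baat (0.0771, 0.21 and 0.0789) with total counts, hepatocyte-list scaling and limma on FPKM, and with hepatocyte-list scaling for Cyp2c70 (0.0456), Hsd3b7 (0.0325) and Akr1d1 (0.0923). Compared with TMM, total counts and the hepatocyte list moved the fold changes upward in these libraries. The median over all tested genes was 0.01 with TMM, 0.30 with total counts and 0.43 with the hepatocyte list. Which of these references is right was not tested.

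The 4685 calls over all tested genes became 8464 with hepatocyte-list scaling (8290 higher, 174 lower), against 2634 higher and 2051 lower with TMM, and 3541 to 4609 with a library left out. Of the 10 enzymes, 1 was called higher with total counts, DESeq2 and limma on FPKM and 3 with hepatocyte-list scaling, while 3 were called lower with total counts and limma on FPKM and 2 with hepatocyte-list scaling; with a library left out 0 were higher and 4 to 6 lower. Other enzymes called lower numbered 2 with upper-quartile, total-count and hepatocyte-list scaling, the filter at 1 CPM and limma on FPKM, and 2 to 5 with a library left out, and 2 were called higher with hepatocyte-list scaling. Regulators called lower numbered 2 with total counts, hepatocyte-list scaling and limma on FPKM. Of all tested genes limma on FPKM called 6082. For it, and for the fits with a library left out, shares of all genes by direction are not given. The counts by direction under those settings therefore have no matching background.

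Whether replicate numbers pair the samples is not stated, and 3 libraries a group are too few to decide it. Deviations from group means correlated at 0.0842, 0.0449 and -0.0759 across genes for numbers 1, 2 and 3. With the replicate block 4568 genes and 5 of the 10 enzymes (all lower) were called, and Cyp7a1 was at 1.43 (edgeR adjusted p = 0.243). Among the other enzymes, regulators and transporters the block added the calls of Cyp39a1 (-0.95, edgeR adjusted p = 0.000965) and Slc10a2 (0.66, edgeR adjusted p = 0.0133) and ended those of Amacr (edgeR adjusted p = 0.0664) and Ppara (edgeR adjusted p = 0.0713).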

Other observations

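Cyp7a1 follows a daily rhythm in rodents, and the labels give no time of collection. Of 13 tested clock genes, 4 fell and 0 rose in the labelled Mdr2-knockout libraries: Hlf (log2 fold change -0.64, edgeR adjusted p = 0.0011), Ciart (-1.57, edgeR adjusted p = 0.00292), Cry1 (-0.95, edgeR adjusted p = 0.0313) and Per2 (-0.50, edgeR adjusted p = 0.0309). At an unadjusted p under 0.05, 0 were higher and 5 lower, and DESeq2 called 0 higher and 6 lower. With edgeR 16.3% of all tested genes fell and 20.9% rose, and 21.6% were lower at that unadjusted p. DESeq2 called 13.4% of its genes lower. The median log2 fold change was -0.44 for the clock genes and -0.47 for the hepatocyte markers. Per1 (-0.78, edgeR adjusted p = 0.0911) and Tef (-0.44) did not pass. With total counts 2 of the 13 fell, Hlf and Ciart. The part of the clock genes in the Cyp7a1 values was not tested.

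Liver genes known to differ between male and female mice moved in both directions. Of 9 tested, 2 rose and 3 fell, where 20.9% of all tested genes rose and 16.3% fell. The male-high genes Mup20 (9244 ± 989.5 CPM in the labelled Mdr2-knockout and 3203 ± 889 CPM in the labelled WT libraries; SD, n = 3 each) and Cyp4a12b (log2 fold change 0.69) rose, and the male-high genes Slco1a1 (-1.31), Hsd3b5 (-2.63) and Cyp2d9 (-0.40) fell. Cyp4a12a (0.44, edgeR adjusted p = 0.0703) did not pass, but did with total counts (0.74, edgeR adjusted p = 0.00862), relative to hepatocyte markers (edgeR adjusted p = 0.00176) and with DESeq2 (adjusted p = 0.026). Mup and Cyp4a12 genes have near-identical copies, so single values are uncertain. The fall of Cyp2d9 did not pass with total counts (edgeR adjusted p = 0.399). Under that scaling 4 of the 9 rose and 2 fell, as did 47.1% and 2.62% of all tested genes. Among untested female-high genes, and named after their values were seen, A1bg, Cyp2b9, Cyp3a41b and Cyp3a44 had no more than 3 counts over either group. The list holds 16 genes, of which 14 had a row and 9 were tested. Not all of its tested and untested genes are named here.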
